A study of Mus musculus with 6 samples.

Results

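10 genes that encode tubulins, 4 for α-tubulin, 5 for β-tubulin and 1 for γ-tubulin, were followed in E0771 cells, a mouse breast carcinoma line of C57BL/6 origin, with or without knockdown of Lmna, the gene of lamin A and lamin C. They were chosen by their symbols, which were matched exactly in a table of 10520 genes, and all 10 were found there: Tuba1a, Tuba1b, Tuba1c, Tuba4a, Tubb2a, Tubb3, Tubb4b, Tubb5, Tubb6 and Tubg1. RNA was read by MARS-seq, which captures the 3′ ends of transcripts and tags every captured molecule with its own identifier (UMI), by which amplified copies are recognised and counted once. There were 3 libraries of shControl cells and 3 of shLmna cells. Cells of both groups were infected with lentivirus made in HEK293T cells and selected and expanded in puromycin, and they are not described as clones. The study's reagent list gives an empty puromycin vector as shControl, so the control cells carry no shRNA against another target, and it lists more than 1 shRNA plasmid against lamin A/C, while the shLmna libraries carry shRNA4 in their titles. The labels do not say that the 3 libraries of a group came from separate cultures, so the p-values measure only the spread between these libraries, which may be technical. The shControl libraries took consecutive positions of a plate and the shLmna libraries the next ones, so that plate position and group cannot be told apart.

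Microtubules are hollow polymers of α- and β-tubulin dimers. They grow from a template of γ-tubulin, and they carry the motors that move organelles, chromosomes and, through links across the nuclear envelope to the lamina, the nucleus itself. Mammals have several α and β isotypes, which are nearly alike over most of their length and differ mainly in the short acidic tail that carries modifications and binds partner proteins. Cells also hold their soluble tubulin within limits by degrading tubulin mRNA while it is being translated, a feedback known as autoregulation, in which TTC5 recognises the start of the nascent chain and brings in SCAPER and the CCR4-NOT deadenylase. In the mouse body, Tubb3 is best known from neurons, Tuba1a and Tubb2a are abundant in the developing brain, and Tuba1b and Tubb5 are expressed in nearly every dividing cell.

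The 6 libraries held 1846208 to 3242051 UMIs. Lmna had 2066, 2794 and 1764 UMIs in the shControl libraries and 1035, 1023 and 713 in the shLmna libraries, and its log2 fold change, always given here as shLmna over shControl, was -1.20 (SE 0.13, adjusted p = 3.5e-05, quasi-likelihood test of edgeR, adjusted after Benjamini and Hochberg over 8969 genes). Of 8 mammary epithelial markers, 5 were in the table. Krt8, a keratin of simple epithelia, was well detected at 246 to 305 CPM (UMIs per 1000000 UMIs of the library, scaled between libraries by TMM factors), whereas Krt19, Krt5 and the cadherin Cdh1 were not in the table. The 5 together summed to 276 to 330 CPM in shControl and 295 to 319 CPM in shLmna, most of it Krt8. Of the 4 that were tested none was called by edgeR or DESeq2. Their median log2 fold change was -0.71, with 3 below 0 and 1 above. Epcam (13.7 ± 0.627 and 7.08 ± 4.07 CPM) and the basal keratin Krt14 (8.24 ± 1.34 and 3.92 ± 2.66 CPM) were lower in shLmna at an unadjusted p of 0.0173 and 0.0133 (edgeR), without overlap, and Krt18 (6.95 ± 2.36 and 4.56 ± 2.47 CPM) overlapped. Without shControl replicate 3 and shLmna replicate 2, which carry melanocyte transcripts, Epcam was called (edgeR adjusted p = 0.00834). Of 7 neuronal markers only Gap43 was in the table, at 0 to 2.35 CPM. The 3 of 6 leukocyte markers in the table summed to 275 to 328 CPM in shControl and 325 to 385 CPM in shLmna, nearly all of it Laptm5, and the defining markers Ptprc and Cd3e were not in the table. Lyz2, a lysozyme of myeloid cells, was itself higher, from 6.00 ± 1.81 to 14.7 ± 1.59 CPM (log2 fold change 1.28, edgeR adjusted p = 0.0110, DESeq2 0.0190). The summed level of the fibroblast markers was 18.6 to 18.8 CPM in shControl and 27.2 to 30.8 CPM in shLmna, with 4 of 7 in the table and Dcn, Lum and Thy1 not in it. Pdgfrb, 1 of the 2 fibroblast markers tested, was higher, from 11.03 ± 1.55 to 18.7 ± 0.658 CPM (log2 fold change 0.74, edgeR adjusted p = 0.0457, DESeq2 0.133). These marker genes were named after their values were seen, and the part that other cell types have in the results below was not tested. Of the 4 endothelial markers only Pecam1 was in the table, and its level lay between 0.625 and 3.18 CPM.

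One library of each group stood apart from the rest. The 6 melanocyte markers in the table (Mlana, Pmel, Tyrp1, Dct, Mitf and Sox10) summed to 754 CPM in shControl replicate 3 and to 605 CPM in shLmna replicate 2, and to between 0.750 and 5.88 CPM in the other 4 libraries. B16F10 melanoma libraries of the same study were made on the same plate and are not analysed here. Where the melanocyte transcripts came from was not tested. Results are therefore also given without these 2 libraries. Of the 10 tubulin genes, Tuba1b was above every other library in exactly these 2, and the other 9 had values there that overlapped with those of the remaining 4.

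Counts of 3′ ends can be split between near-identical genes, and the tubulins differed widely in this respect. The share of 50-base stretches in the last 1000 bases of the transcript that also occurred in transcripts of other genes was 85.9% for Tuba1b, 79.5% for Tuba1c, 70.9% for Tuba1a, 66.5% for Tubb2a, 53.4% for Tubb4b and 22.1% for Tubg1. It was 0.21% for Tubb5, and no stretch was shared for Tuba4a, Tubb3 and Tubb6. Genes with an exon that overlaps a counted end were left out of the shares for that end. The α genes Tuba1a, Tuba1b and Tuba1c shared sequence with each other and with processed copies, Tubb2a mainly with its neighbour Tubb2b, Tubb4b with its pseudogenes and Tubg1 with Tubg2. Over the last 300 bases, nearest to the poly(A) tail, the shares were 66.5% for Tuba1b, 43.0% for Tuba1c, 30.3% for Tubb4b, 21.5% for Tuba1a and 16.3% for Tubb2a, and 0 for the other 5. The values of these 5 genes with shared ends are uncertain to that extent. In addition, the end of Tuba1b overlaps Gm49450 on the same strand, and the ends of Tuba4a and Tubb4b overlap Stk16 and Fam166a on the opposite strand; whether the counting used the strand is not given in the sources used here.

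Tubb2a and Tubb3 lie at chr13:34074274-34078007 on the minus strand and chr8:123411424-123422015 on the plus strand (GRCm38). Their promoters are shown because these were the 2 genes lower in shLmna cells, beside the promoter of Tubb4b (gene at chr2:25222160-25224702, minus strand), whose level hardly moved. The sequences are from RefSeq (GRCm38.p6), in which 8 of the 10 genes had an entry, and run 5′ to 3′ on the gene's strand up to the start site; for Tubb3 the 129 bases next to the RefSeq start, which lie inside the gene as GENCODE annotates it, are left out. Capitals mark the CCAAT box (CCAAT), the GC box bound by Sp-family factors (GGGCGG) and the TATA box (TATAAA), searched on both strands, so that a run in capitals can also be the reverse complement of these letters. No 2 matches overlapped.
Tubb2a, chr13:34078009-34078258, minus strand: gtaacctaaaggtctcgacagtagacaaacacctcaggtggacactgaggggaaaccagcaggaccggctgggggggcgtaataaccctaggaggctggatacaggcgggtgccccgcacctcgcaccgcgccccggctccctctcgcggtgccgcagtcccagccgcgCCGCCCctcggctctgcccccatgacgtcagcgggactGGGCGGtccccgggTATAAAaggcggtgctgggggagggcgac
Tubb3, chr8:123411303-123411423, plus strand: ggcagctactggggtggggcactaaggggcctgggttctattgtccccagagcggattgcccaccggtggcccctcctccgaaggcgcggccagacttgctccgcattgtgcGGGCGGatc
Tubb4b, chr2:25224703-25224952, minus strand: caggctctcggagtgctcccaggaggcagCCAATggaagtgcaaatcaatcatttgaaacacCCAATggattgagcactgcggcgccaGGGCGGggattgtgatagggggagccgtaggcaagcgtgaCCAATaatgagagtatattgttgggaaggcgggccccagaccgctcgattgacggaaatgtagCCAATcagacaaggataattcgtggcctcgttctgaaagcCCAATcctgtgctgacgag

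In the 250 bases before the start site, Tubb2a held GGGCGG 2 times and TATAAA once, the latter beginning at position -29. Tubb3 held GGGCGG 2 times and CCAAT once over the full 250 bases, and no TATAAA. Tubb4b held CCAAT 5 times and GGGCGG once. Tubb5, the most abundant β gene, held CCAAT 2 times. Among all 27025 genes with such a window, 34.5% held CCAAT, 32.9% GGGCGG and 13% TATAAA; among the 6928 of them that were tested for expression here, the shares were 36.7%, 62.6% and 5.72%. GGGCGG, which both lower genes carry, was found in most tested promoters, and Tubb4b has it too.

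Since 1 UMI stands for 1 captured 3′ end whatever the transcript's length, levels of the tubulins were compared in CPM without a length term. The levels of Tuba1b, Tuba1c, Tubb4b, Tuba1a and Tubb2a carry the uncertainty from shared ends given above, which the order does not take into account. Averaged over all 6 libraries, Tuba1b was at 1979 CPM, Tubb5 at 1557, Tuba1c at 943, Tubb4b at 769, Tuba1a at 519.8, Tubb6 at 519.6, Tuba4a at 296, Tubb2a at 190.5, Tubg1 at 133 and Tubb3 at 66.8 CPM. The order was the same in all 6 libraries from Tubb5 to Tuba1c to Tubb4b, with every Tubb5 value above every Tuba1c value and every Tuba1c value above every Tubb4b value. Tuba1b exceeded Tubb5 in 5 of 6 libraries, and Tuba1a and Tubb6 could not be ordered, since each was higher in 3. Tuba4a was above Tubb2a and Tubb2a above Tubg1 within every library, although their ranges met across libraries. Tubb3 was the lowest of the 10 throughout, with 89 to 227 UMIs per library.

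**Figure D1:**
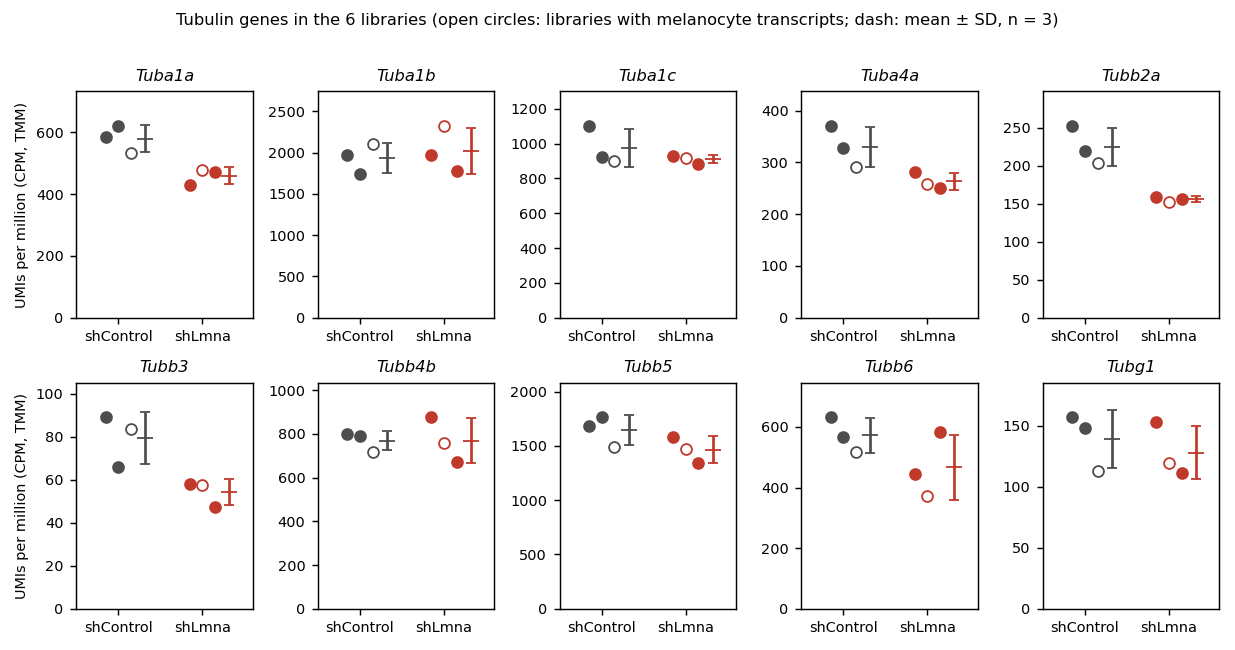
Level of each of the 10 tubulin genes in CPM (TMM-scaled UMI counts, linear axis from 0) in the 3 shControl (grey) and 3 shLmna (red) libraries; the dash with bars is the mean ± SD (n = 3) and open circles are the 2 libraries with melanocyte transcripts. All 3 shLmna values lie below all 3 shControl values for Tuba1a, Tuba4a, Tubb2a and Tubb3, and the groups overlap for the other 6.

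In shLmna cells 2 of the 10 tubulin genes were lower at an adjusted p below 0.05, Tubb2a and Tubb3, and none was higher by edgeR or DESeq2. At an adjusted p below 0.05, 13.7% of all 8969 genes tested were called in either direction, 5.78% as lower and 7.96% as higher. At an unadjusted p below 0.05 edgeR gave 4 lower and 0 higher of the 10. The share of all genes at that unadjusted threshold was not taken, so these counts have no background to be set against. By the stricter criteria of the study (mean normalised count above 5, absolute log2 fold change above 1 and adjusted p below 0.05) none of the 10 was called, against 5.71% of all genes. The fold change was below 0 for 8 of the 10 (49.6% of all genes), and their median log2 fold change was -0.23, against 0.0033 for all genes. In 4 of the 10 the groups did not overlap, each with shLmna lower; the groups did not overlap in 32.5% of all genes, and in 15.7% with shLmna lower.

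Tubb2a, a β-tubulin abundant in brain, was at 253, 219 and 203 CPM in shControl and 159, 152 and 157 CPM in shLmna. Every knockdown library was below every control library, and the knockdown libraries lay close together. The mean fell from 225 ± 25.2 to 156 ± 3.71 CPM (SD, n = 3), a change of -30.7% (95% interval -43.5% to -14.8%) with a log2 fold change of -0.53 (SE 0.14, adjusted p = 0.0203, edgeR). It was called under 9 of 9 other ways of processing that used all libraries, and without the 2 libraries with melanocyte transcripts (log2 fold change -0.57, edgeR adjusted p = 0.0259). With 1 library fewer the log2 fold change stayed between -0.60 and -0.45, but the call was lost without shControl replicate 1 (edgeR adjusted p = 0.0776), shControl replicate 2 (0.0696), shLmna replicate 2 (0.0753) or shLmna replicate 3 (0.0665).

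Tubb3, the β-tubulin characteristic of neurons, was at 89.0, 65.7 and 83.3 CPM in shControl and 58.1, 57.3 and 47.3 CPM in shLmna, which corresponds to 227, 210 and 157 UMIs against 155, 156 and 89. The groups did not overlap, with a gap from 58.1 to 65.7 CPM. The mean went from 79.3 ± 12.2 to 54.2 ± 5.99 CPM, a change of -31.1% (95% interval -46.5% to -11.3%), and the log2 fold change of -0.54 (SE 0.17) was just past the threshold (adjusted p = 0.0496, edgeR). This call was lost in 6 of the 9 other ways of processing, with DESeq2 giving an adjusted p of 0.0657, and with any 1 library left out (edgeR adjusted p 0.0631 to 0.189). Without the 2 libraries with melanocyte transcripts the log2 fold change was -0.54 with an edgeR adjusted p of 0.0932. The neuronal marker Gap43 had 0 to 7 UMIs per library, and the other neuronal markers were not in the table.

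Tubb5, the main β-tubulin of dividing cells, was at 1686, 1766 and 1493 CPM in shControl and 1586, 1470.0 and 1339.5 CPM in shLmna, so that the groups overlapped. Its log2 fold change was -0.17 (95% interval -0.46 to 0.12, edgeR adjusted p = 0.450). Tubb4b, a widely expressed β-tubulin that is also prominent in cilia, was at 798, 790.5 and 718 CPM in shControl and 877, 759 and 670.0 CPM in shLmna. The means, 769 ± 43.9 and 769 ± 104 CPM, could not be distinguished, and the interval of the log2 fold change ran from -0.30 to 0.30. Tubb6, a divergent β-tubulin, was at 632, 567 and 516 CPM in shControl and 445, 373 and 584 CPM in shLmna. Its shLmna replicate 3 lay within the control range and the others below it, and the log2 fold change of -0.29 (95% interval -0.65 to 0.06) did not pass the test (edgeR adjusted p = 0.268).

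Among the α-tubulins, Tuba1a, best known for its part in brain development, was at 584, 621 and 535 CPM in shControl and 428, 479 and 472 CPM in shLmna. Its groups did not overlap, and the log2 fold change was -0.34 (SE 0.13), but it missed the threshold after adjustment (edgeR adjusted p = 0.107; unadjusted p = 0.0230). Tuba4a, whose product is made without the C-terminal tyrosine that most other α-tubulins carry, was at 370.2, 327 and 292 CPM in shControl and 280.3, 258 and 249.9 CPM in shLmna. It likewise showed no overlap and missed the threshold, with a log2 fold change of -0.33 (SE 0.14, edgeR adjusted p = 0.136; unadjusted p = 0.0338). Leaving out the 2 libraries with melanocyte transcripts gave log2 fold changes of -0.42 for Tuba1a and -0.39 for Tuba4a, also not called (edgeR adjusted p = 0.0903 and 0.127).

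The 2 most abundant α-tubulins showed no difference past the test. Tuba1b was at 1967, 1744 and 2100 CPM in shControl and 1969.8, 2322 and 1771 CPM in shLmna, with its highest values in the 2 libraries with melanocyte transcripts. The log2 fold change of Tuba1b was 0.06 (95% interval -0.25 to 0.37), and 0.01 without these 2 libraries. Tuba1c was at 1102, 922 and 899.8 CPM in shControl and 931, 917 and 884 CPM in shLmna, with 1 control library above all others and a log2 fold change of -0.10 (95% interval -0.39 to 0.19). Tubg1, the γ-tubulin that seeds microtubules, was at 157, 148 and 112 CPM in shControl and 153, 120 and 111 CPM in shLmna, and its log2 fold change of -0.12 had an interval of -0.48 to 0.24.

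**Figure D2:**
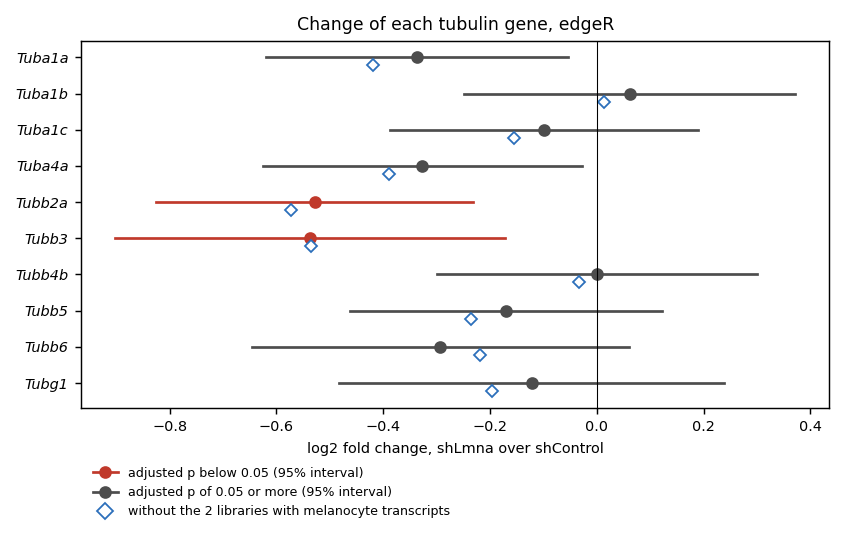
Log2 fold change of each tubulin gene, shLmna over shControl (edgeR, circles, with 95% intervals; red where the adjusted p is below 0.05), and the same without the 2 libraries with melanocyte transcripts (blue diamonds). Tubb2a (-0.53) and Tubb3 (-0.54) are the red genes; the diamonds stay on the same side of 0 as the circles for all but Tubb4b (-0.03).

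Changes called in this comparison ran with the base composition of the counted ends. The median GC content of the last 1000 bases was 49.9% for genes called lower, 44.6% for genes called higher and 47.4% for all genes. The tubulins lay between 44.4% (Tubb5) and 57.7% (Tubg1), with a median of 52.15%. After a correction for GC content in each library, Tubb2a (edgeR adjusted p = 0.0136) and Tubb3 (0.0302) were still called and none of the other 8 was. The median log2 fold change of the 10 genes was then -0.21, against -0.032 for all genes.

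Summed over the 4 α genes, the level was 3821 ± 205 CPM in shControl and 3654 ± 303 CPM in shLmna, and the groups overlapped. Summed over the 5 β genes it was 3293 ± 243 and 2912 ± 186 CPM, also with overlap, from 3015 to 3458 in shControl and from 2798 to 3126 in shLmna. The 10 genes together made up 0.709 ± 0.0195% of all UMIs in shControl and 0.679 ± 0.0395% in shLmna, and the ratio of α to β UMIs was 1.16 ± 0.104 and 1.26 ± 0.138. These sums and the shares below are described without a test, and they carry the uncertainty from shared ends. In bulk RNA, less transcript per cell and fewer cells that make it cannot be told apart.

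Within the β pool, Tubb2a took 7.30%, 6.42% and 6.74% of the UMIs in the shControl libraries and 5.10%, 5.41% and 5.61% in the shLmna libraries, without overlap. Tubb3 took 2.42 ± 0.439% in shControl and 1.86 ± 0.173% in shLmna, with overlap. Tubb2a and Tubb3 together, both already called lower in these libraries, took 9.24 ± 0.797% and 7.23 ± 0.252%, without overlap. The share of Tubb4b was 23.4 ± 0.407% in shControl and 26.3 ± 2.13% in shLmna, and these ranges did not meet only by a small margin, the highest control share being 23.8% and the lowest knockdown share 23.9%. Tubb5 took 48.8% to 51.8% in shControl and 47.9% to 52.3% in shLmna, and Tubb6 varied most among knockdown libraries, from 13.3% to 20.9%. Within the α pool, Tuba1a took 15.2 ± 1.72% in shControl and 12.6 ± 1.17% in shLmna, with ranges that touch at 13.98% and 13.97%. Tuba1b took 50.7 ± 3.65% and 55.1 ± 3.01%, Tuba1c 25.5 ± 1.94% and 25.0 ± 1.69% and Tuba4a 8.62 ± 0.867% and 7.22 ± 0.654%, all with overlap.

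**Figure D3:**
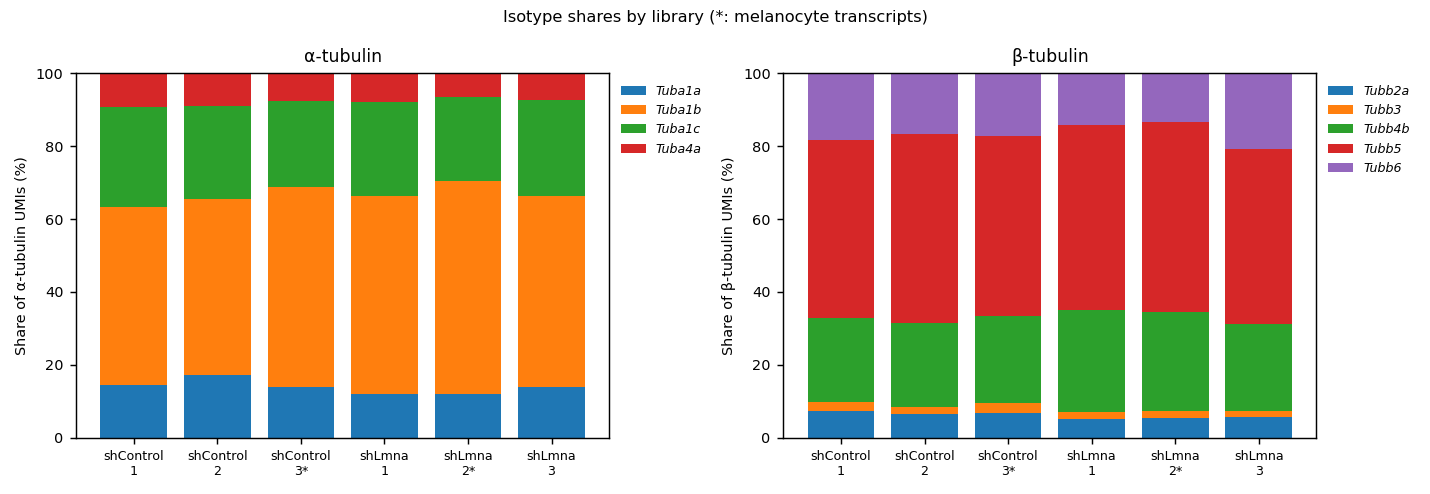
Share of each isotype (%, stacked bars) in the UMIs of the 4 α-tubulin genes (left) and of the 5 β-tubulin genes (right), 1 bar per library; asterisks mark the 2 libraries with melanocyte transcripts. Tubb5 (47.9% to 52.3%) and Tuba1b (48.3% to 58.4%) are the widest layers of their pools in every library, and the Tubb2a layer is thinner in the 3 shLmna bars (5.10% to 5.61%) than in the 3 shControl bars (6.42% to 7.30%).

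Outside these 10, 10 further tubulin genes were looked up and 6 were in the table. Tubb2b, which lies beside Tubb2a at chr13:34126748-34130466 and encodes a nearly identical protein, had 185, 168 and 101 UMIs in shControl and 103, 91 and 43 in shLmna, or 72.6, 52.5 and 53.6 against 38.6, 33.4 and 22.9 CPM. The groups did not overlap, and Tubb2b was lower with a log2 fold change of -0.90 (SE 0.21, adjusted p = 0.0115, edgeR), also without the 2 libraries with melanocyte transcripts (-0.98, edgeR adjusted p = 0.00936). Its call was lost without shControl replicate 1 (edgeR adjusted p = 0.0506) or shLmna replicate 3 (0.0703). Of its last 1000 bases 16.4% of the stretches were shared with other transcripts, and of its last 300 none. The transcript end used for Tubb2b lay 260 bases from the RefSeq end, where the authors counted. These shares may therefore not hold for the counted end. Tubg2, Tubd1 and Tube1, the genes of the second γ-tubulin and of δ- and ε-tubulin, had 13 to 51 UMIs per library and were not called, and Tuba3a and Tuba8, with 0 to 9 UMIs, were too low to be tested.

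Genes that make, regulate and use tubulin were counted in 7 lists. Of 125 listed genes 100 were tested, and 6 were higher and 6 lower in shLmna, so that 12% were called, against 13.7% of all genes; the median log2 fold change was 0.01. Among 21 genes of tubulin folding, which include the chaperonin TRiC, prefoldin and the tubulin cofactors, 1 was called: Cct7, a TRiC subunit, fell from 1452, 1381 and 1265 to 1059, 879.6 and 824 CPM (log2 fold change -0.57, edgeR adjusted p = 0.0155). The median of the folding list was -0.18. Without the 2 libraries with melanocyte transcripts it was -0.08, and 2 folding genes were lower and 1 higher, with Cct6a, another TRiC subunit (edgeR adjusted p = 0.0242), and Tbca, a tubulin cofactor (0.0236, higher), called beside Cct7. Of the 4 genes of tubulin mRNA autoregulation none was called by edgeR or by DESeq2, and 0 had an unadjusted p below 0.05. Their median was 0.27, but 0.18 after the GC correction, with 2 of 4 below 0, and 0.14 over the 3 genes still tested without the 2 libraries with melanocyte transcripts.

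Among 17 genes of the γ-tubulin ring complex and of augmin, the complex that branches new microtubules from existing ones, 2 were lower and 2 higher, with a median of 0.04. Tubgcp3, a core subunit of the ring, was at 55.7, 59.4 and 56.2 CPM in shControl and 37.1, 38.9 and 35.1 CPM in shLmna (log2 fold change -0.62, edgeR adjusted p = 0.0197). Haus8, an augmin subunit that binds microtubules, was at 83.9, 67.5 and 61.5 against 52.8, 41.9 and 42.0 CPM (-0.64, edgeR adjusted p = 0.0266). Tubgcp5 and Haus3, other subunits of these complexes, were higher from very few molecules, with 8, 6 and 5 against 22, 15 and 12 UMIs for Tubgcp5 and 6, 3 and 9 against 22, 17 and 14 for Haus3. Their counted ends were poor in GC (34.2% and 35.6%), and neither was called after the GC correction (edgeR adjusted p = 0.156 and 0.0824) or by DESeq2 (0.104 and 0.0770).

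Of 16 tubulin modifying enzymes, 2 were lower and 1 higher, and none of the 3 was called by DESeq2. Atat1, the α-tubulin acetyltransferase, had 27, 45 and 21 UMIs in shControl and 19, 17 and 7 in shLmna (log2 fold change -1.04, edgeR adjusted p = 0.0384; DESeq2 0.0961). Ttll4, a glutamylase, had 133, 178 and 99 against 109, 93 and 56 UMIs (-0.61, edgeR adjusted p = 0.0329; DESeq2 0.0513), and Ttll11, another glutamylase, 5, 12 and 8 against 26, 19 and 19 (1.42, edgeR adjusted p = 0.0197; DESeq2 0.0510). Without the 2 libraries with melanocyte transcripts Atat1 (edgeR adjusted p = 0.0550) and Ttll4 (0.0763) were not called, and the median of the list went from -0.19 to -0.31.

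Stmn4, a neuronal stathmin of the family that sequesters tubulin dimers, had 26, 30 and 19 UMIs in shControl and 2, 6 and 1 in shLmna. It showed the largest change among the 100 genes in the lists (log2 fold change -2.95, SE 0.44, adjusted p = 0.000542, edgeR) and was the only one called with each library left out in turn. It was the only called gene among 8 destabilisers and severing enzymes. Of 14 stabilisers and end binding proteins 2 were higher, both of the family that tracks growing microtubule ends: Mapre2, with 4, 13 and 12 against 24, 45 and 17 UMIs (1.59, edgeR adjusted p = 0.0209), and Mapre3, with 21, 24 and 15 against 39, 37 and 26 UMIs (0.83, edgeR adjusted p = 0.0442; DESeq2 0.148). Of 20 genes of kinesin-1, dynein and dynactin, only Dctn4, a dynactin subunit, was called, at 1, 3 and 6 against 12, 11 and 11 UMIs (1.79, edgeR adjusted p = 0.0453; DESeq2 0.116). Ckap5, a microtubule polymerase of the stabiliser list, was not called with all libraries but was lower without the 2 libraries with melanocyte transcripts (log2 fold change -0.53, edgeR adjusted p = 0.0489, against 0.128 with all). Mapre3 was not called without these 2 libraries (edgeR adjusted p = 0.0879) or with any 1 library left out, Haus3, Atat1 and Dctn4 kept their call in 1 of 6 such fits, and Cct7, Tubgcp3, Tubgcp5, Haus8, Ttll11, Ttll4 and Mapre2 in 2 of 6.

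Tubulin demand rises with division, and 12 proliferation genes were therefore looked up as well. None of the 10 that were tested was called by edgeR or DESeq2, and 1 was higher at an unadjusted p below 0.05 (edgeR). Their median log2 fold change was 0.23, with 8 of 10 above 0. This median was not taken after the GC correction or without the 2 libraries with melanocyte transcripts.

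**Figure D4:**
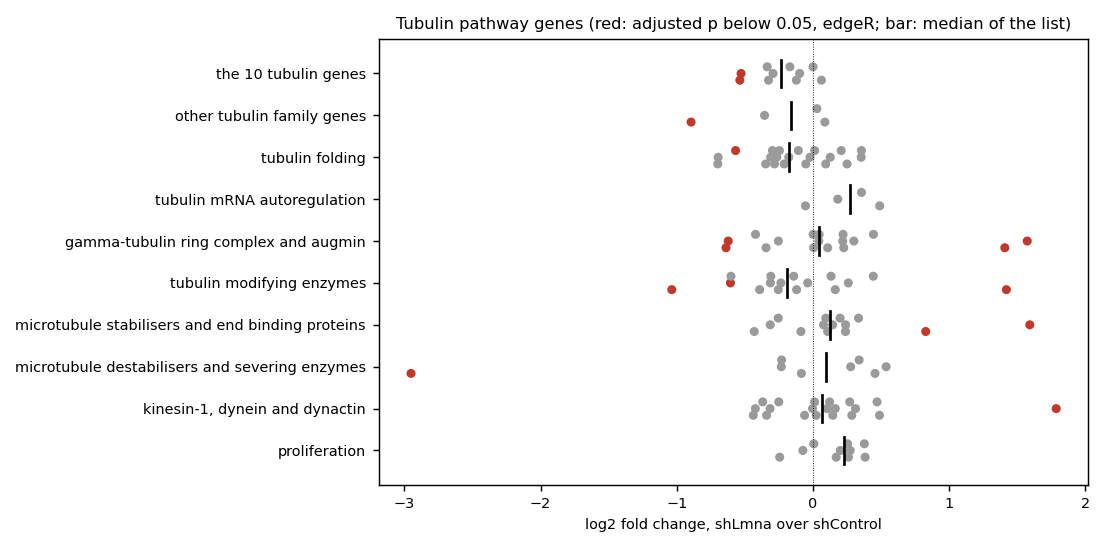
Log2 fold change, shLmna over shControl, of every tested gene in the lists of the tubulin pathway and of proliferation, with the 10 tubulin genes and the other tubulin family genes at the top; red points have an adjusted p below 0.05 (edgeR) and the bar is the list's median. The median of the 10 tubulin genes is -0.23 and that of proliferation 0.23, and Stmn4 (-2.95) lies far to the left of all other genes shown.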

How the data were processed

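The authors trimmed reads with Cutadapt, mapped them to mm10 with STAR 2.4.2a and counted UMIs with a modified HTSeq-count in a window from 1000 bases before to 100 bases after the 3′ end of every RefSeq gene; the deposited counts are whole numbers without normalization. A second deposited table (6 columns of ComBat-corrected values) and the authors' own DESeq2 comparison (fold changes and p-values) were not used. Genes passing filterByExpr (minimum count 10) were scaled by TMM factors and compared with edgeR 4.0.16 (R 4.3.3) by its quasi-likelihood test, 3 libraries against 3, with Benjamini-Hochberg adjustment over 8969 genes. An exact permutation test of 3 against 3 cannot give a p below 0.1. DESeq2 1.42.0, limma-voom (limma 3.58.1), other scalings and filters, a GC correction (loess, span 0.3), a replicate block and leaving out each library were alternatives. Transcript ends came from GENCODE M21 (GRCm38). Scripts were tested on simulated data with 200 changed genes, of which edgeR recovered 96.5%, with 9 false calls among 8815 genes. Recovery at log2 fold changes as small as those of Tubb2a and Tubb3 was not tested separately. Recovery for genes with as few UMIs as Tubgcp5, Haus3, Ttll11, Dctn4, Stmn4, Mapre2, Mapre3 and Atat1 was not tested separately either. Named genes are the 10 members, Lmna, the called genes of each list (the 4 with the smallest p where more were called) and, for the most abundant α, β and γ gene, the 3 genes nearest in profile. The members and lists were chosen with earlier results of these data known. Plots were drawn with matplotlib 3.10.9.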

Additional observations from a re-analysis of the deposited data

How the results depend on the processing

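The number of tubulin genes called lower was 2, and it was 1 (Tubb2a) with DESeq2, limma-voom, upper-quartile scaling, no filter, a mean count of at least 50, the GC correction together with the replicate block, and without the 2 libraries with melanocyte transcripts; it was 0 to 1 with 1 library left out. None was called higher in any of these. Leaving out the 2 libraries and using the melanocyte transcripts as a covariate were chosen after seeing the data; with the covariate Tubb2a and Tubb3 were called (edgeR adjusted p = 0.00533 and 0.0220). The log2 fold change of Tubb4b, near 0, turned to -0.0048 with DESeq2 and with RLE scaling, -0.0068 with limma-voom, -0.0054 without a filter, -0.0068 with the replicate block and -0.034 without the 2 libraries, and lay between -0.12 and 0.091 with 1 library left out; that of Tuba1b lay between -0.048 and 0.15. The 6 pathway genes called lower became 10 with the GC correction and replicate block together and 1 to 8 with 1 library left out. The 6 called higher became 1 with DESeq2, 0 with a mean count of at least 50 (which removes genes with few UMIs), 2 with the GC correction and replicate block together and 0 to 6 with 1 library left out. Lmna was called throughout, at -1.26 to -1.15 with 1 library left out. The cause of these moves was not tested otherwise. With the replicate number as a block 2 tubulin genes were called lower as without it, and of the named pathway genes Mapre3 lost its call (edgeR adjusted p = 0.0559); same-numbered libraries of the groups correlated at 0.35, -0.11 and 0.0052, and only replicate 1 correlated best with its own number, so the numbers were not taken as pairs. At this depth the called pathway genes Tubgcp5, Haus3, Ttll11 and Dctn4 rest on 1 to 26 UMIs per library, which limits the precision of their fold changes (SE 0.37 to 0.56). Stmn4 (1 to 30 UMIs, SE 0.44) and Mapre2 (4 to 45 UMIs, SE 0.42) are limited in the same way.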

Other observations

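For the most abundant α, β and γ gene, the genes with the most similar pattern over the 6 libraries were found among 3697 genes of at least 50 CPM, by the root mean square difference of log2 CPM after centring. Nearest to Tuba1b were Prelid1 (0.0348), Tapbp (0.0385) and Chmp1a (0.0510). Nearest to Tubb5 were Rilpl2 (0.0199), Rara (0.0477) and Kat2a (0.05002). Nearest to Tubg1 were Cdk2ap2 (0.0366), Abhd17a (0.0466) and Ppil2 (0.0592). These likenesses are descriptions over 6 libraries that share the 2 groups, the depth and the melanocyte transcripts.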
